A study of Rattus norvegicus with 59 samples.

Results

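The genes described here fold new proteins in the endoplasmic reticulum (ER), bring those proteins into it, and build the coated vesicles that carry them between the ER and the Golgi. They were chosen by name, as a list of 50 gene symbols that was drawn up with earlier results of these data known. Of the 50, 47 were matched by symbol, on 68 probe sets (a probe set is a group of short probes that read 1 transcript) among 31042 probe sets and 14217 named genes in all. Ern1, Sec23a and Srpr were not matched by these symbols, although Srpr is on the array under its present symbol Srpra, given below. The 47 genes comprise 11 chaperones and chaperone cofactors, 3 disulfide isomerases, 2 regulators of the unfolded protein response (UPR), 4 genes of ER-associated degradation (ERAD), 13 genes of protein translocation, 7 of the COPII coat and 7 of the COPI coat. Each gene was read on its brightest probe set, and all 47 of these passed the filter on dim probe sets, as did 65 of the 68 probe sets.

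RNA was measured in whole liver of male Sprague-Dawley rats, which had received a single intraperitoneal injection of metal or of the sterile saline vehicle. Cd exposed rats received CdCl2 at 1.25 mg/kg, the medium dose of the study, and Cr exposed rats received Na2Cr2O7 at its high dose, given as 20 mg/kg in the labels, although the methods of the study also name another dose for the arrays. Livers were taken on days 1, 3 and 7, with 5 control and 5 exposed livers per metal and day, except that 4 Cd exposed livers remained on day 1. The fifth, liver 3, was excluded by the authors because it clustered with the controls and had not accumulated Cd, so the Cd day 1 group holds livers that responded. Each metal had its own controls, and every comparison below is exposed minus control of the same metal and day. Values are log2 signals, a difference of 1 is a doubling of signal, and errors of differences are standard errors (SE). A gene was called higher or lower where the adjusted p from limma (Benjamini-Hochberg over 15521 probe sets) was 0.05 or less.

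A hepatocyte makes and exports most of the proteins of blood plasma, and its ER is correspondingly large. Signal peptides direct new chains to the Sec61 channel, the chaperone Hspa5 (BiP) and its cofactors fold them, disulfide isomerases form their cystine bonds, and chains that fail to fold are pulled out and degraded. When unfolded chains accumulate, Atf6, Ern1 (Ire1) and Eif2ak3 (Perk) signal to the nucleus. This is the UPR, and chaperones, ERAD genes and many translocation genes are its textbook targets. Atf6 is cut at the Golgi to release a transcription factor, and Ern1 splices the messenger RNA of Xbp1, which then encodes another.

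The promoters of the genes show what they share in sequence. Promoter sequence was not used to choose the genes, but the list holds UPR genes by design. A high share of UPR elements among them was therefore likely beforehand and is a description only. The ER stress response element (ERSE), to which Atf6 and Xbp1 can bind, was searched as CCAAT, then 9 bases of any kind, then CCACG, on both strands of the 300 bases from 250 before to 50 after the start of each gene. Promoters were found for 40 of the 47 genes among 33469 promoters of RefSeq (build GRCr8). An ERSE was present in 7 of the 40, or 17.5%, against 22 of all promoters, or 0.0657%. Each of the 40 genes was counted once even with more than 1 promoter, as for Hyou1, whereas the other share counts every promoter. Hspa5 and Hsp90b1 (Grp94), the ER members of the Hsp70 and Hsp90 families, are shown in full because they are the main chaperones. Capitals mark the letters that the search fixed. Each sequence is written along the strand of its gene, so a match on the opposite strand appears as its reverse complement. Hspa5 held 1 match, starting 43 bases before the gene start, and Hsp90b1 held 2, starting 176 and 72 bases before it.
Hspa5 (chr3:38452766-38453065, plus strand): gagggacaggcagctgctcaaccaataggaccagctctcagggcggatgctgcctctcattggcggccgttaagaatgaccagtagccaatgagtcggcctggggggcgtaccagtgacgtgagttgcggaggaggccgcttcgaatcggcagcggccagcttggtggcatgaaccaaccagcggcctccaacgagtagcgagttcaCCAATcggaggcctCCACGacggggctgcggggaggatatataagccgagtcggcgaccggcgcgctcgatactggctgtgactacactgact
Hsp90b1 (chr7:23012244-23012543, minus strand): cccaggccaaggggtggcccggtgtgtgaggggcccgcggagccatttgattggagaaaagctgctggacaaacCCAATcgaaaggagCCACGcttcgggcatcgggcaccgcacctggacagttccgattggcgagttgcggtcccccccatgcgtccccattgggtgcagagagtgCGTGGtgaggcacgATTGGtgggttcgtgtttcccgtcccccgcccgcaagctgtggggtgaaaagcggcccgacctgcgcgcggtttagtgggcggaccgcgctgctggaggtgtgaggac

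The other 5 genes with an ERSE were the lectin chaperones Calr and Canx, the BiP cofactor Dnajc3, the stress-induced Creld2 and the UPR factor Xbp1. They are shown with the bases around the match, because the genes with this element differed in their response, as given below.
Calr (chr19:40213117-40213173, plus strand): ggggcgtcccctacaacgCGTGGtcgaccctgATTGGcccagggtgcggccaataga
Canx (chr10:35158049-35158107, minus strand): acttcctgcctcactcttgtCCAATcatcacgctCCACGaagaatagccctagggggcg
Creld2 (chr7:121789219-121789277, plus strand): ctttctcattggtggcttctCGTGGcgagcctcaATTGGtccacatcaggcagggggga
Dnajc3 (chr15:102432514-102432572, plus strand): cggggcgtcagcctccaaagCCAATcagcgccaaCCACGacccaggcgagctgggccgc
Xbp1 (chr14:84604538-84604596, plus strand): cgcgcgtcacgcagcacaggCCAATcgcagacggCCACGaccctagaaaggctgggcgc

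A related element, ERSE-II (ATTGG, 1 base of any kind, CCACG), was present in 3 of the 40 promoters against 17 of all promoters, or 0.0508%. The 3 were the BiP cofactor Dnajb11, the ERAD gene Herpud1 and the large chaperone Hyou1, which held it in 2 places.
Dnajb11 (chr11:91672780-91672830, minus strand): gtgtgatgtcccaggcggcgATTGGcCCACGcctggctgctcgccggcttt
Herpud1 (chr19:10614801-10614851, minus strand): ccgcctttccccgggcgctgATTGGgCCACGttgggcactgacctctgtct
Hyou1 (chr8:53602674-53602724, plus strand): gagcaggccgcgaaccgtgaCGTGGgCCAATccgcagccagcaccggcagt
Hyou1 (chr8:53602774-53602824, plus strand): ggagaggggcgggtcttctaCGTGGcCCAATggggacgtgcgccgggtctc

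The third element, the UPR element (UPRE) TGACGTGG, was present in 6 of the 40 promoters, or 15%, against 199 of all promoters, or 0.595%. One of the 6 was Hyou1, where it overlapped the first ERSE-II match, and the other 5 were genes of the COPI coat. These 5 are shown because all of them rose after both metals, whereas Hyou1 was called after Cd only.
Arf1 (chr10:44514002-44514039, minus strand): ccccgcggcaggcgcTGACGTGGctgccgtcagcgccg
Arf4 (chr16:1903412-1903449, plus strand): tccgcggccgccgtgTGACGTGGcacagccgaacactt
Copa (chr13:87078883-87078917, plus strand): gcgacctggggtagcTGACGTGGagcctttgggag
Copb1 (chr1:177872824-177872861, minus strand): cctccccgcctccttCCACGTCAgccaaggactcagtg
Copb2 (chr8:108040662-108040699, plus strand): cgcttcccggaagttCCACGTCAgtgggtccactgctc

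The last 5 letters of the UPRE are the reverse complement of the last 5 of the ERSE, so all 3 elements share them. CCACG alone was present in 31 of the 40 promoters, or 77.5%, against 31.6% of all promoters. A match is a run of letters and not a measured binding site.

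On day 1 after Cd, 43 of the 47 genes rose and 0 fell. These 43 are 91.5% of the genes, where 12.8% of all probe sets tested were called higher and 10.6% lower. Here and below, genes were read on their brightest probe sets, while all probe sets tested include dimmer ones. The shares are therefore not matched for signal. The median difference of the 47 genes was 0.48, or 1.39-fold, and that of all probe sets tested was 0.01. All 47 genes lay above 0, with a range of 0.14 to 1.64. The exposed and control livers did not overlap in 35 of the 47 genes, where 9.62% of all probe sets tested showed no overlap with the exposed livers higher. Changes of 1.8-fold or more were fewer, at 6 genes, where 1.89% of all probe sets tested rose that far. In whole liver, a change in the number of cells of a type and a change in RNA per cell cannot be told apart. Markers of Kupffer cells, the macrophages of the liver, moved with the same contrast: 7 of 7 fell, Csf1r by the least, at -1.20, and Cd163 by the most, at -3.79, and their mean log2 signal ran from 8.51 to 9.01 in control and from 5.25 to 7.59 in exposed livers. Of 2 neutrophil markers tested 1, S100a9, rose by 3.64 ± 0.49, and the other read -0.59 and was not called. The part of these cells in the rise of the ER genes was not tested. In exposed livers 1, 2, 4 and 5 the Kupffer marker mean was 5.38, 5.60, 5.25 and 7.59, and the median difference of the 47 genes was 0.46, 0.38, 0.67 and 0.47. Of 5 endothelial markers tested 1, Lyve1, rose by 0.87 ± 0.18, and 4 were not called. Of 2 cholangiocyte markers tested 1, Epcam, fell by 0.46 ± 0.14, and the other read 0.89 and was not called. The part of these cells was not tested either.

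**Figure D1:**
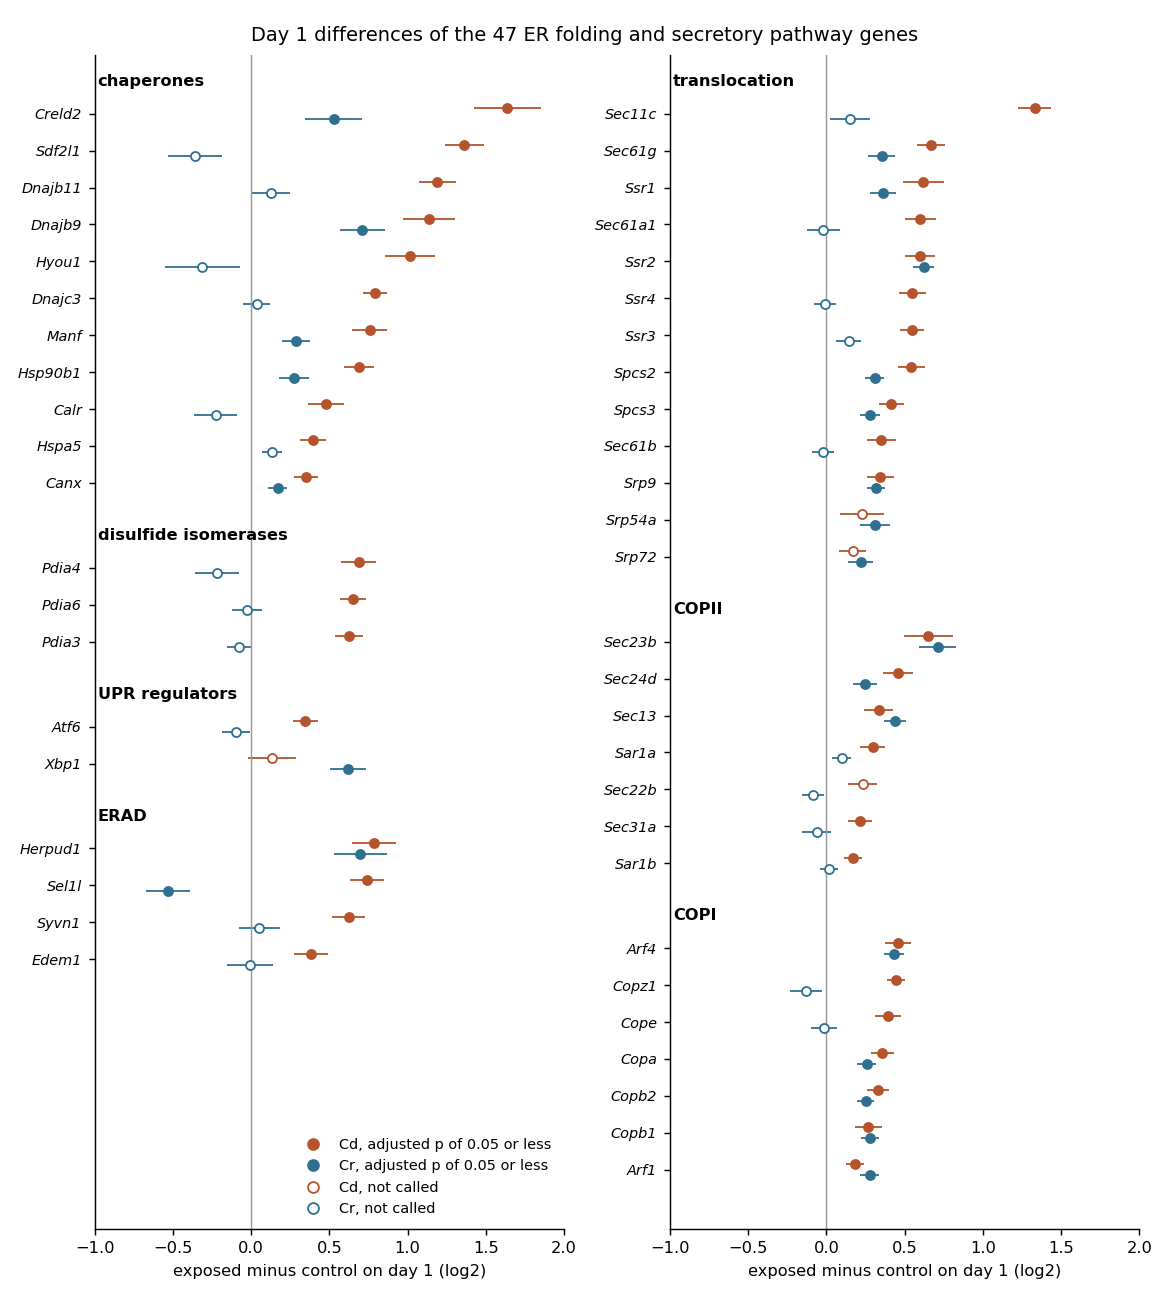
Exposed minus control difference on day 1 (x axis, log2) of each of the 47 genes, ordered within roles by the Cd value, with Cd in orange and Cr in blue. Bars are 1 SE, and filled points passed the test. After Cd 43 points are filled and lie above 0, and after Cr 23 filled points lie above 0 and 1, Sel1l, below.

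Chaperones had the largest median of the roles after Cd, at 0.79. All 11 were called higher, with a range of 0.35 to 1.64, and 5 of the 6 genes past 1.8-fold were chaperones. Creld2, an ER protein known as a marker of ER stress, read 9.91, 10.41, 9.82, 9.79 and 9.62 in control livers 1 to 5 and 11.42, 10.90, 11.93 and 11.94 in exposed livers 1, 2, 4 and 5. The difference was 1.64 ± 0.21, or 3.11-fold (adjusted p = 2.25e-06). Every exposed liver lay above every control, with liver 2 the lowest of the exposed.

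Sdf2l1, a partner of BiP and Dnajb11, read 10.52, 10.41, 10.33, 10.58 and 10.50 in controls and 11.87, 11.69, 12.16 and 11.61 in exposed livers. It rose by 1.36 ± 0.12, or 2.57-fold (adjusted p = 1.88e-08), with a wide gap between the groups. Dnajb11 (ERdj3), which hands unfolded chains to BiP, read 10.14, 10.41, 10.34, 10.38 and 10.19 in controls and 11.38, 11.43, 11.85 and 11.27 in exposed livers. This was a rise of 1.19 ± 0.12, or 2.28-fold (adjusted p = 6.56e-08). In both genes liver 4 was the highest of the exposed livers and liver 5 the lowest, and no exposed liver came near the controls.

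Dnajb9 (ERdj4), another cofactor of BiP, read 9.23, 9.45, 9.47, 8.93 and 9.10 in controls and 10.48, 10.11, 10.53 and 10.38 in exposed livers, a rise of 1.14 ± 0.16 (adjusted p = 9.93e-06). Hyou1 (Grp170), which exchanges the nucleotide of BiP, read 7.37, 7.53, 7.59, 7.26 and 7.33 in controls and 8.08, 8.27, 8.82 and 8.55 in exposed livers, and it rose by 1.01 ± 0.16 (adjusted p = 2.91e-05). Neither gene overlapped between groups. The remaining chaperones had smaller values. Dnajc3 rose by 0.79 ± 0.08, the secreted ER factor Manf by 0.76 ± 0.11, Hsp90b1 by 0.69 ± 0.09, and the calcium-binding lectin chaperones Calr and Canx by 0.48 ± 0.11 and 0.35 ± 0.08. The median of the probe sets of Canx was not called (0.19, adjusted p = 0.0839). Hspa5 itself was among the smallest of the chaperone rises. It read 12.93, 13.14, 12.90, 12.97 and 12.79 in controls and 13.33, 13.12, 13.51 and 13.39 in exposed livers. The rise was 0.39 ± 0.08, or 1.31-fold (adjusted p = 0.000697), and exposed liver 2 lay within the control range, the only chaperone overlap between the groups.

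The 3 disulfide isomerases rose by like amounts after Cd. Pdia4 rose by 0.69 ± 0.11, Pdia6 by 0.65 ± 0.08 and Pdia3, which works with Calr and Canx, by 0.62 ± 0.09, and none of the 3 overlapped between groups. Of the ERAD genes, 4 of 4 rose. Herpud1, a membrane protein of the degradation complex, rose by 0.78 ± 0.14, Sel1l, which holds that complex together, by 0.74 ± 0.11, the ubiquitin ligase Syvn1 (Hrd1) by 0.62 ± 0.11, and Edem1, which marks misfolded glycoproteins, by 0.38 ± 0.11. Edem1 was no longer called without exposed liver 1 (adjusted p = 0.0828) or liver 4 (adjusted p = 0.0638). Against controls pooled over days, Herpud1 was still called, with a difference of 0.42. Its Cd controls read 9.53 to 10.11 on day 1 and 10.27 to 10.61 on day 3.

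Of the 2 UPR regulators, 1 was called. Atf6 rose by 0.35 ± 0.08 (adjusted p = 0.00204) on its brightest probe set, but its other probe set read -0.12 ± 0.13 (adjusted p = 0.538), and the median of both was not called (adjusted p = 0.265). Xbp1 read 11.71, 11.77, 11.74, 11.96 and 11.85 in controls and 12.26, 11.75, 11.85 and 11.91 in exposed livers. The difference of 0.14 ± 0.15 did not pass the test (adjusted p = 0.583), and 3 of the 4 exposed livers lay within the control range. The value is of the whole transcript and does not separate the spliced form. The Cd day 1 controls of Xbp1 lay above most other controls, as given below.

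**Figure D2:**
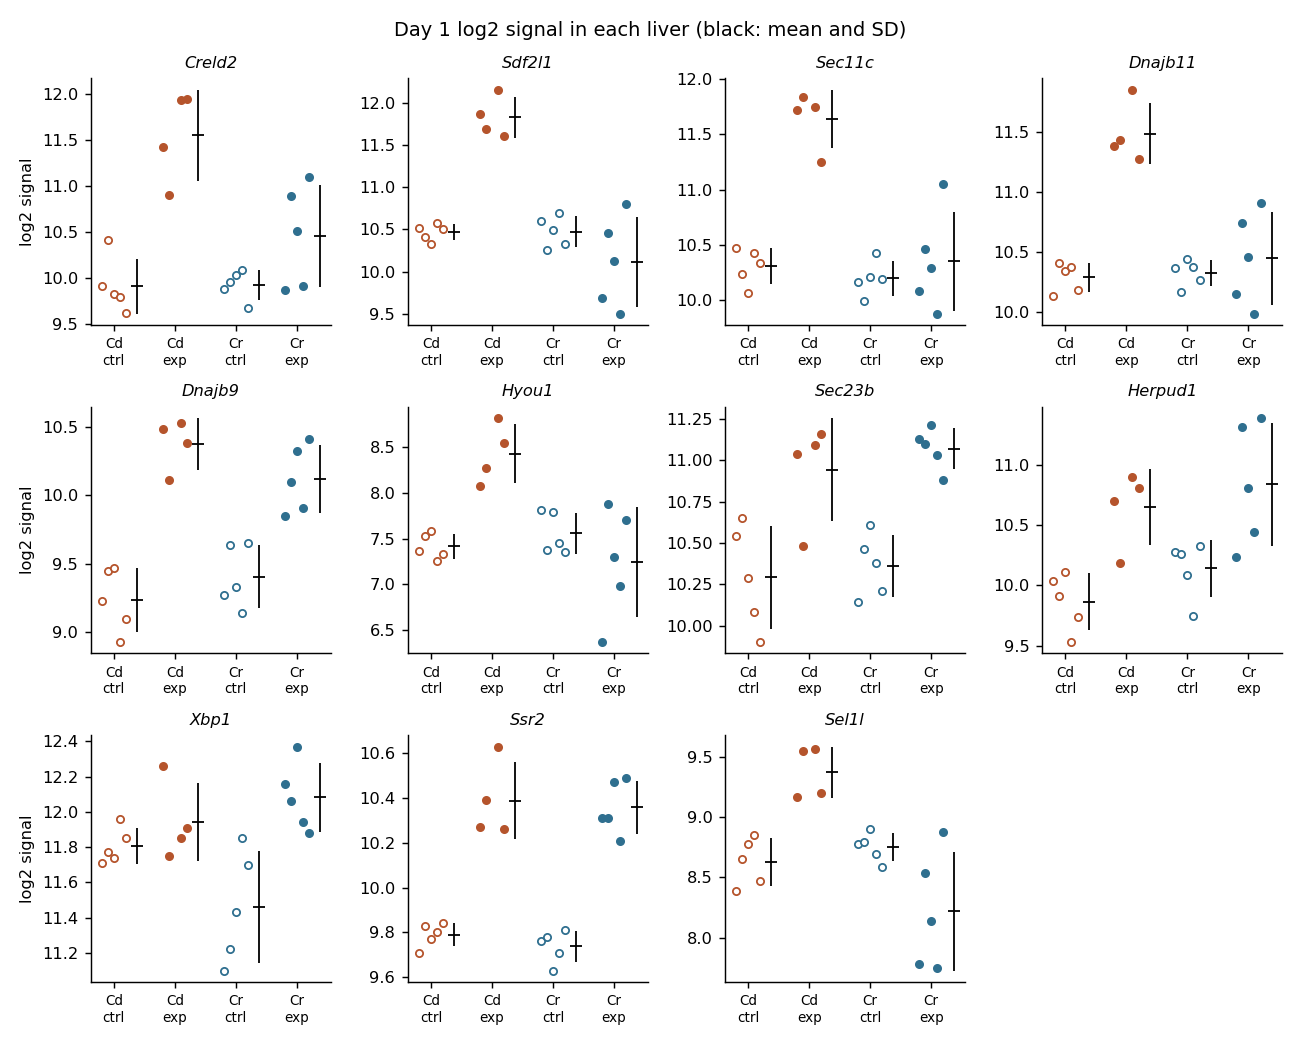
Log2 signal on day 1 (y axis, a separate scale in each panel) of the 11 genes described liver by liver, in control (ctrl, open) and exposed (exp, filled) livers of the Cd (orange) and Cr (blue) series. Points run from liver 1 on the left to liver 5 on the right, and the black bars are the mean and SD. Cd exposed livers lie above their controls without overlap for Creld2, Sdf2l1, Sec11c, Dnajb11, Dnajb9, Hyou1, Herpud1, Ssr2 and Sel1l, and the Cr exposed livers spread over both sides of their controls for Sdf2l1, Sec11c, Dnajb11 and Hyou1.

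Among the genes of translocation, 11 of 13 rose after Cd, with a median of 0.55. Sec11c, a catalytic subunit of the signal peptidase that trims new chains, read 10.47, 10.24, 10.07, 10.43 and 10.34 in controls and 11.72, 11.84, 11.75 and 11.25 in exposed livers. It rose by 1.33 ± 0.11, or 2.52-fold, and had the smallest adjusted p of the 47 genes (1.64e-09). The accessory subunits Spcs2 and Spcs3 rose by 0.54 ± 0.09 and 0.42 ± 0.08. Of the Sec61 channel, the pore subunit Sec61a1 rose by 0.60 ± 0.10 and the small subunits Sec61g and Sec61b by 0.67 ± 0.09 and 0.35 ± 0.09. The 4 subunits of the translocon-associated protein complex, Ssr1 to Ssr4, rose by 0.55 to 0.62. The signal recognition particle, which brings ribosomes to the ER, was called in 1 of its 3 genes. Srp9 rose by 0.35 ± 0.09, and Srp54a (0.23 ± 0.14, adjusted p = 0.265) and Srp72 (0.17 ± 0.09, adjusted p = 0.161) were not called on their brightest probe sets, although both were with the median of their probe sets (adjusted p = 0.0117 and 0.00752).

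The vesicle coats had smaller medians than the chaperones. Of the COPII genes, which build vesicles that leave the ER, 6 of 7 were called higher with a median of 0.30. Sec23b, of the inner coat, rose by 0.65 ± 0.16 with 1 overlapping liver, and Sec24d, which selects cargo, by 0.46 ± 0.10. Sec13, of the outer coat, rose by 0.33 ± 0.09, and the GTPases Sar1a and Sar1b by 0.30 ± 0.08 and 0.17 ± 0.06. The call of Sar1b was lost in 7 of 18 alternatives, namely with no filter on dim probe sets and without control liver 1, 3, 4 or 5 or exposed liver 2 or 5 (adjusted p up to 0.117). Sec31a rose by 0.22 ± 0.08, but its signal, 5.45 in controls, was close to the filter of 5.41, and its call was lost in 9 of 17 alternatives, among them those without control liver 2, 4 or 5 or exposed liver 1, 4 or 5 (adjusted p up to 0.137). The fusion protein Sec22b read 0.23 ± 0.09 higher (adjusted p = 0.0738). All 7 COPI genes, which carry proteins back from the Golgi, were called higher with a median of 0.36, from 0.18 ± 0.06 for the GTPase Arf1 to 0.46 ± 0.08 for Arf4, and the coat subunits Copa, Copb1, Copb2, Cope and Copz1 lay between. Of the 43 calls after Cd, 36 held without any 1 of the arrays. Without exposed liver 4, Arf1, Copb1, Edem1, Sar1a, Sec13 and Sec31a were not called, and 37 genes were. Copb1 was also lost without control liver 5 or exposed liver 5, and Arf1 without control liver 2.

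On day 1 after Cr fewer of the genes were called. Of the 47, 23 rose and 1 fell, and 23 did not pass the test. The 23 are 48.9% of the genes, and 27.9% of all probe sets tested were called higher and 17.8% lower after Cr, so the share stood closer to the background than after Cd. The median difference was 0.15, or 1.11-fold, against 0.04 for all probe sets tested. The values ran from -0.53 to 0.71, and 0 genes reached 1.8-fold, where 2.61% of all probe sets tested rose that far. The groups did not overlap in 13 genes, all with the exposed livers higher, where 12.7% of all probe sets tested showed the same. Kupffer cell markers did not fall after Cr: 1 of 7, Cd163, rose by 0.54 ± 0.17 and 6 were not called, and their mean signal ran from 8.55 to 8.83 in control and from 8.70 to 9.18 in exposed livers. Both neutrophil markers tested rose, S100a9 by 1.34 ± 0.30, as did both cholangiocyte markers tested, Epcam by 1.14 ± 0.25 and Spp1 by 1.29 ± 0.37. Of 6 stellate cell markers tested Dcn rose by 1.41 ± 0.48, Lrat fell by 0.31 ± 0.12 and 4 were not called. Of 5 endothelial markers tested 1, Pecam1, rose by 0.46 ± 0.11 and 4 were not called, and the median of the 5 was -0.10. Their part in the result was not tested.

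The chaperones divided after Cr. Of the 11, 5 rose and 6 did not pass the test. Dnajb9 read 9.27, 9.64, 9.33, 9.14 and 9.65 in control livers 1 to 5 and 9.85, 10.10, 10.32, 9.91 and 10.41 in exposed livers 1 to 5, a rise of 0.71 ± 0.14, or 1.63-fold (adjusted p = 0.000225), with no overlap. Creld2 read 9.88, 9.95, 10.03, 10.09 and 9.67 in controls and 9.87, 10.89, 10.51, 9.91 and 11.09 in exposed livers. Its rise of 0.53 ± 0.18 (adjusted p = 0.0199) came from livers 2, 3 and 5, since livers 1 and 4 lay within the control range. The call was lost without exposed liver 2 (adjusted p = 0.067), exposed liver 5 (adjusted p = 0.0807) or control liver 5 (adjusted p = 0.0556). Manf rose by 0.29 ± 0.09, Hsp90b1 by 0.27 ± 0.10 and Canx by 0.17 ± 0.06 on its brightest probe set. The direction of Canx is uncertain, since the median of its probe sets was called lower (-0.29, adjusted p = 0.0222). Its call was lost with the replicate number as a block (adjusted p = 0.0612) and without control liver 3 or 5 or exposed liver 3 or 5 (adjusted p up to 0.0936). That of Hsp90b1 was lost with the block (adjusted p = 0.0506) and without control liver 2 or exposed liver 2 or 5 (adjusted p up to 0.0805).

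Sdf2l1, among the largest rises after Cd, was not called after Cr. It read 10.60, 10.26, 10.49, 10.69 and 10.33 in controls and 9.69, 10.46, 10.13, 9.50 and 10.80 in exposed livers, so livers 1, 3 and 4 lay below every control and liver 5 above. The difference was -0.36 ± 0.17 (adjusted p = 0.096). It was called lower against controls pooled over days (-0.39, adjusted p = 0.0186) and without exposed liver 5 (-0.53, adjusted p = 0.00771). Hyou1 read 7.82, 7.38, 7.79, 7.45 and 7.36 in controls and 6.37, 7.88, 7.30, 6.98 and 7.71 in exposed livers (-0.31 ± 0.24, adjusted p = 0.299). Dnajb11 read 10.37, 10.17, 10.44, 10.38 and 10.27 in controls and 10.15, 10.74, 10.46, 9.99 and 10.91 in exposed livers (0.12 ± 0.13, adjusted p = 0.442). In these 3 genes the exposed livers lay on both sides of the controls. The difference of Hspa5 was 0.13 ± 0.06 (adjusted p = 0.089), that of Dnajc3 0.04 ± 0.08 and that of Calr -0.23 ± 0.14, and without exposed liver 5 Calr was called lower (-0.39, adjusted p = 0.00592). None of the 3 disulfide isomerases passed the test, with differences of -0.22 ± 0.14 for Pdia4, -0.08 ± 0.08 for Pdia3 and -0.03 ± 0.09 for Pdia6.

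Within the UPR regulators and the ERAD genes the values after Cr lay on both sides of 0. Xbp1 read 11.10, 11.22, 11.43, 11.85 and 11.70 in controls and 12.16, 12.06, 12.37, 11.94 and 11.88 in exposed livers. It rose by 0.62 ± 0.11, or 1.54-fold (adjusted p = 8.03e-05), with no overlap. The Cr day 1 controls 1, 2, 3 and 5 lay below all Cd day 1 controls, while the exposed livers of the metals overlapped. The Cd day 1 controls ran from 11.71 to 11.96. Those of Cd day 3 (11.19 to 11.66), Cr day 3 (11.37 to 11.59) and Cr day 7 (11.23 to 11.60) all lay lower. Those of Cd day 7 ran from 11.14 to 12.01. Atf6 read -0.10 ± 0.09 (adjusted p = 0.381). Herpud1 read 10.28, 10.26, 10.09, 9.75 and 10.33 in controls and 10.24, 11.32, 10.81, 10.44 and 11.39 in exposed livers, and it rose by 0.70 ± 0.17 (adjusted p = 0.00142) with liver 1 within the control range.

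Sel1l was the 1 gene called in opposite directions after the metals. After Cr it read 8.78, 8.79, 8.90, 8.69 and 8.59 in controls and 7.78, 8.54, 8.14, 7.75 and 8.88 in exposed livers, and it fell by 0.53 ± 0.14, to 0.692 of the control signal (adjusted p = 0.00317). Livers 1 to 4 lay below every control, and liver 5 near the highest of them. After Cd it read 8.39, 8.65, 8.78, 8.85 and 8.47 in controls and 9.17, 9.55, 9.56 and 9.20 in exposed livers, all above the controls. Syvn1 and Edem1, which act in the same pathway, differed by 0.05 ± 0.13 and -0.01 ± 0.15 after Cr and were not called.

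Translocation and coat genes were 16 of the 23 genes that rose after Cr, but these roles also hold most of the 47. The share called higher was 61.5% in translocation, 42.9% in COPII and 71.4% in COPI. It was 48.9% over all 47 genes and 45.5% in the chaperones. Of the 13 translocation genes, 8 rose, with a median of 0.28. Ssr2 read 9.76, 9.78, 9.63, 9.71 and 9.81 in controls and 10.31, 10.31, 10.47, 10.21 and 10.49 in exposed livers, a rise of 0.62 ± 0.07 with the smallest adjusted p of the 47 genes after Cr (7.3e-08). Every exposed liver lay clear of the controls, livers 1 and 4 included. Ssr1 rose by 0.36 ± 0.08, Sec61g by 0.35 ± 0.09, Srp9 by 0.32 ± 0.06, Srp54a by 0.31 ± 0.10, Spcs2 by 0.31 ± 0.06, Spcs3 by 0.28 ± 0.06 and Srp72 by 0.22 ± 0.08. The call of Srp54a was lost with the median of its probe sets (0.06, adjusted p = 0.614) and without control liver 1 (adjusted p = 0.0503). That of Srp72 was lost without control liver 1, 3 or 4 or exposed liver 2 (adjusted p up to 0.094). Sec11c read 10.17, 9.99, 10.21, 10.43 and 10.19 in controls and 10.08, 10.46, 10.29, 9.88 and 11.05 in exposed livers (0.15 ± 0.13, adjusted p = 0.34), spread over both sides of the controls. Sec61a1, Sec61b, Ssr3 and Ssr4 were not called either, with values from -0.02 to 0.14.

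Of the COPII genes, 3 of 7 rose. Sec23b read 10.14, 10.46, 10.61, 10.38 and 10.21 in controls and 11.13, 11.10, 11.21, 11.03 and 10.88 in exposed livers. Its rise of 0.71 ± 0.12, or 1.64-fold (adjusted p = 1.96e-05), was the largest of the 47 genes after Cr, with all 5 exposed livers above the controls. Sec13 rose by 0.44 ± 0.07 and Sec24d by 0.25 ± 0.07. Of the COPI genes, 5 of 7 rose, namely Arf4 by 0.43 ± 0.06, Copb1 by 0.28 ± 0.06, Arf1 by 0.28 ± 0.06, Copa by 0.26 ± 0.06 and Copb2 by 0.25 ± 0.05. These are 5 of the 6 genes whose promoters held the UPRE. The other, Hyou1, was not called after Cr (-0.31). The coat subunits Cope and Copz1 read -0.02 ± 0.08 and -0.13 ± 0.10 and were not called.

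The Cr exposed livers differed among themselves, and not in every role. The median difference of the 47 genes from the control mean was -0.03, 0.27, 0.26, -0.01 and 0.35 in livers 1 to 5. The medians near 0 of livers 1 and 4 were of genes on both sides of the controls. In these livers 18 and 16 of the 47 genes lay above every control, and 16 and 18 below. Of all probe sets tested 39.3% and 38.2% lay above every control there, and 28.8% and 29.4% below, so such a spread was not particular to these genes. Over all probe sets tested, the same 2 livers were the farthest from their controls, with a root mean square difference of 0.563 and 0.584 against 0.389, 0.47 and 0.372 in livers 2, 3 and 5. The medians of the disulfide isomerases were -0.28, -0.02, -0.01, -0.43 and 0.42 in livers 1 to 5, and those of the ERAD genes -0.40, 0.38, 0.17, -0.42 and 0.37. The COPI genes did not show this spread, with medians of 0.18, 0.23, 0.35, 0.16 and 0.25. The livers were not regrouped, and every Cr value given here is over all 5.

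**Figure D3:**
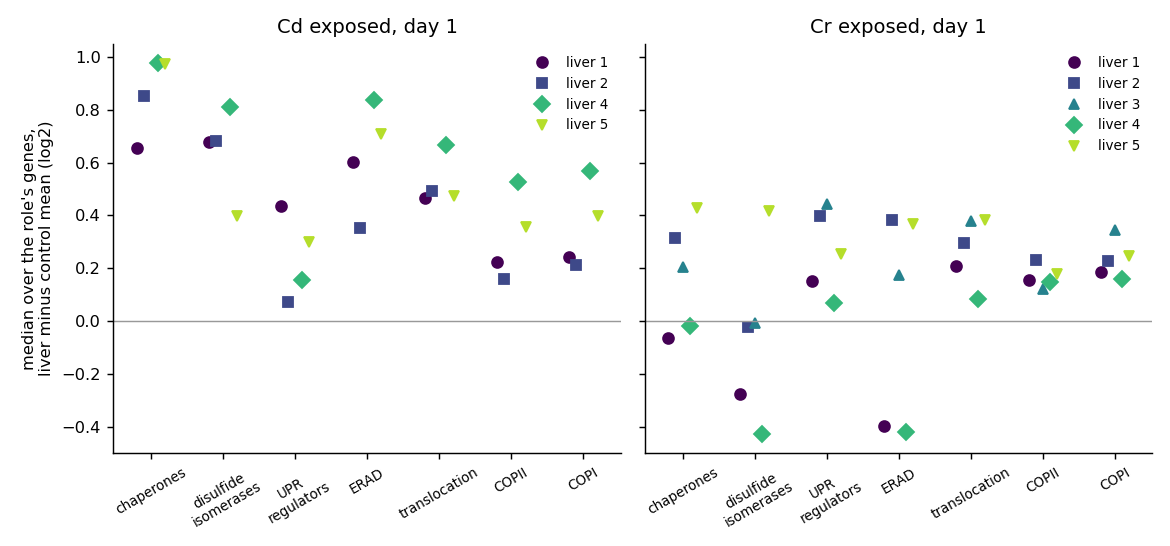
Median over the genes of each role (x axis) of the liver's signal minus the mean of the same-day controls (y axis, log2), for each Cd exposed (left) and Cr exposed (right) liver on day 1. After Cd all 4 livers lie above 0 in every role. After Cr livers 1 and 4 lie below 0 for chaperones, disulfide isomerases and ERAD and above 0 for translocation, COPII and COPI.

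After Cd the exposed livers were more alike, with medians of 0.46, 0.38, 0.67 and 0.47 in livers 1, 2, 4 and 5. In these livers 43, 37, 45 and 45 of the 47 genes lay above every control and 0 below, where 25.9%, 26.3%, 29.6% and 24.3% of all probe sets tested lay above every control. In the Cr exposed livers 18, 34, 29, 16 and 39 genes lay above every control, and 16, 3, 5, 18 and 0 lay below every control. Of all probe sets tested, 39.3%, 34%, 35.5%, 38.2% and 28.7% lay above every control in these livers, and 28.8%, 22.9%, 25.8%, 29.4% and 22% below. In livers 1 and 4 the genes above every control were thus near the share of all probe sets or under it.

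Of the 43 genes that rose after Cd, 20 also rose after Cr, 22 were not called and Sel1l fell. The genes that rose after Cr and were not called after Cd were Srp54a, Srp72 and Xbp1. A call after 1 metal only does not show a difference between metals, so the difference of the 2 effects was tested over all 59 arrays. It was higher for Cd in 23 of 47 genes, or 48.9%, and for Cr in 0. Of the 15521 probe sets tested, 1480, or 9.54%, were higher for Cd and 2375 for Cr. The median of the 47 genes was 0.32, and that of all probe sets tested -0.03.

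Chaperones and disulfide isomerases were 12 of these 23 genes. The difference was called in 9 of 11 chaperones, with the largest value for Sdf2l1 at 1.72 ± 0.22 (adjusted p = 2.51e-07), followed by Hyou1 at 1.32 ± 0.30, Creld2 at 1.11 ± 0.29 and Dnajb11 at 1.07 ± 0.18. It was called in all 3 disulfide isomerases, with values of 0.68 to 0.91. For Hspa5 it was 0.26 ± 0.10 (adjusted p = 0.0464), a call that did not hold in 17 of 26 alternatives. Sel1l differed by 1.27 ± 0.18 (adjusted p = 2.2e-06) and its partner Syvn1 by 0.57 ± 0.17 (adjusted p = 0.0115). Atf6 differed by 0.44 ± 0.12 (adjusted p = 0.00436) on its brightest probe set. With the median of its probe sets it was not called (0.11, adjusted p = 0.493). Sec11c differed by 1.18 ± 0.17 (adjusted p = 1.77e-06), and of the other translocation genes Sec61a1, Sec61b, Ssr3 and Ssr4 were also called.

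Fewer coat genes were called. The difference was called in 1 of 7 COPII genes (Sec22b, a call that did not hold in 10 of 26 alternatives) and 2 of 7 COPI genes (Cope and Copz1). For genes that rose after both metals the intervals of the difference bound it. The 95% interval was -0.17 to 0.23 for Arf4, -0.21 to 0.19 for Copb1, -0.25 to 0.21 for Ssr2, -0.46 to 0.34 for Sec23b and -0.37 to 0.54 for Herpud1. A missed threshold does not show that the metals acted alike on these genes. Xbp1 was the 1 gene with a large value towards Cr, at -0.49 ± 0.19 (adjusted p = 0.0591). It was called in 5 of 26 alternatives, with adjusted p from 0.0102 to 0.039. The part of the high Cd day 1 controls of Xbp1, given above, was not tested.

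The promoter elements followed these values only in part. The 10 genes with an ERSE or ERSE-II had a median difference after Cd of 0.74, against 0.43 in the 30 genes with neither, and after Cr of 0.15 against 0.24. All of the 10 but Xbp1 and Herpud1 are chaperones, the role with the largest median after Cd (0.79). Element and role are therefore not separated in these medians. The difference between metals had a median of 0.56 with and 0.27 without either element. Within the 7 ERSE genes the Cd value ran from 0.14 (Xbp1) to 1.64 (Creld2). The 6 genes with a UPRE, 5 of them COPI genes, had a median of 0.34 after Cd and 0.27 after Cr, and the median difference between metals was 0.05, against 0.35 in the 34 genes without. These are descriptions of few genes and were not tested.

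On days 3 and 7 none of the 47 genes was called after either metal by limma, and 0 were by plain ANOVA contrasts. Among all probe sets tested, 1.3% were called on day 3 and 0.0258% on day 7 after Cd, and 0% on day 3 and 0.232% on day 7 after Cr. At an unadjusted p of 0.05 or less, 12 genes were lower and 0 higher on day 3 after Cd, and 3 lower and 0 higher on day 7. At that p 3.83% of all probe sets tested were lower and 8.1% higher on day 3, and 4.92% and 3.29% on day 7, so the 3 genes of day 7 were near the background. After Cr, 1 was higher and 3 lower on day 3, where 5.59% of all probe sets tested were higher and 2.91% lower, and 2 were higher and 0 lower on day 7, where 6.71% were higher and 4.12% lower.

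Most Cd values lay below 0 on day 3, although none was called. On that day the median of the 47 genes was -0.14, and 36 lay below 0, among them all 11 chaperones, all 3 disulfide isomerases and all 4 ERAD genes. Sdf2l1 had the smallest adjusted p. It read 10.83, 10.66, 10.44, 10.38 and 10.41 in controls and 10.38, 10.10, 10.21, 9.76 and 10.28 in exposed livers, a difference of -0.40 ± 0.12 (adjusted p = 0.0995). Exposed livers 2 to 5 lay below every control, and liver 1 was level with the lowest control. Sdf2l1 was called lower against controls pooled over days (adjusted p = 0.0356) and with array weights (adjusted p = 0.0297). Other values on that day were -0.39 ± 0.13 for Herpud1 and -0.26 ± 0.10 for Edem1 and Syvn1, all uncalled. The COPI genes lay on both sides of 0, 4 above and 3 below.

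On day 7 after Cd the median was -0.11. It was -0.05 without exposed liver 2, which was the farthest from the controls over all probe sets, with a root mean square difference of 0.432 against 0.199 to 0.256 in the other exposed livers. After Cr the medians were -0.05 on day 3 and 0.06 on day 7. Creld2 read -0.50 ± 0.18 on day 3 after Cr (adjusted p = 0.356), and Dnajb9 read 0.33 ± 0.14 on day 7 (adjusted p = 0.386). Xbp1 read 0.28 ± 0.11 on day 3 (adjusted p = 0.462) and -0.09 ± 0.11 on day 7.

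**Figure D4:**
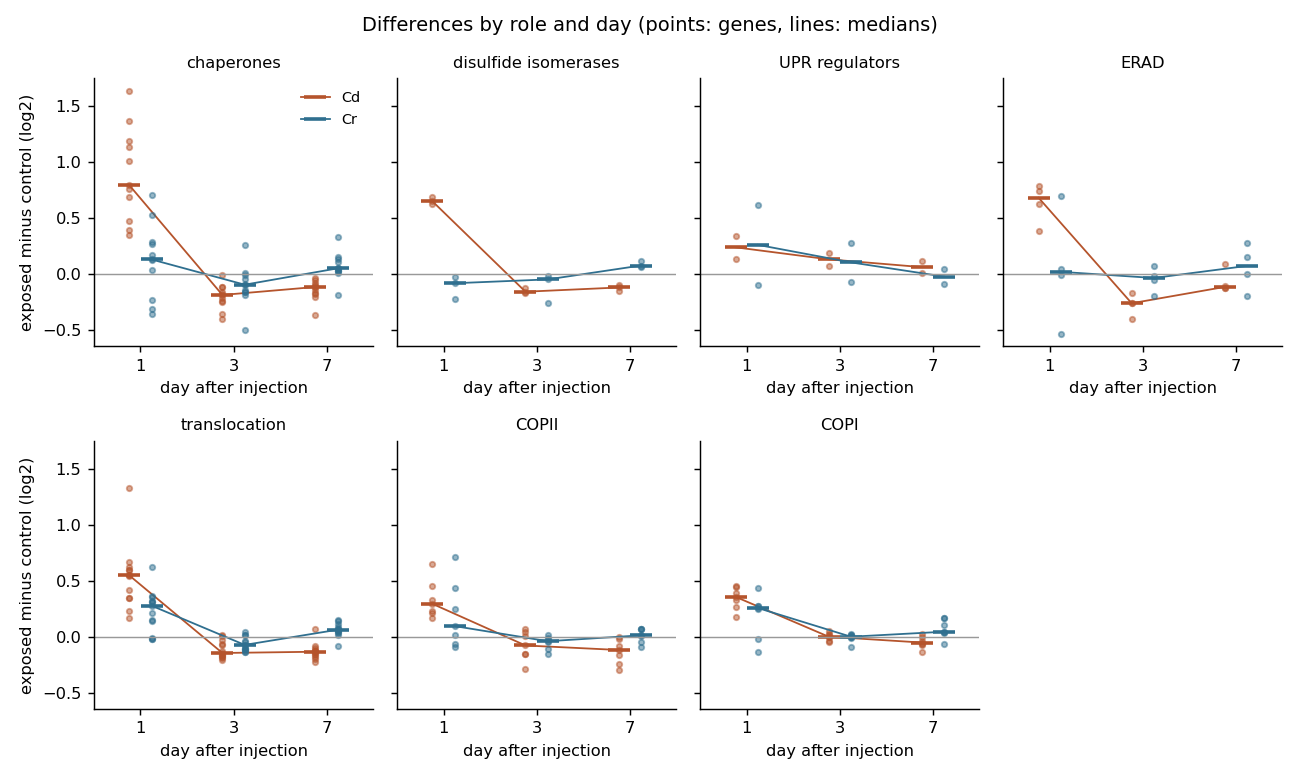
Exposed minus control difference (y axis, log2) by day after injection (x axis) for the genes of each role, with Cd in orange and Cr in blue. Points are genes and lines join their medians. The Cd medians lie above 0 on day 1 in every role and below 0 on days 3 and 7 for chaperones, disulfide isomerases, ERAD, translocation and COPII.

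The difference between the effects of days 1 and 3 was tested. After Cd the day 1 difference exceeded that of day 3 in 35 of 47 genes, where 5.36% of all probe sets tested showed this. In 0 genes was it smaller, where it was smaller in 901 of the 15521 probe sets tested. The 35 included all chaperones, disulfide isomerases and ERAD genes, with 1.88 for Creld2 and 1.76 for Sdf2l1 as the largest values. After Cr it did so in 18 genes, where 15.4% of all probe sets tested did, with 5 of the 7 COPI, 6 of the 13 translocation and 4 of the 11 chaperone genes. Between days 3 and 7, 0 genes differed for either metal, where of the 15521 probe sets tested 0 differed after Cd and 2 after Cr. Any shift of the controls between days enters such differences, as for Herpud1 and Dnajb9 between days 1 and 3 after Cd.

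Other genes of the same pathways were measured as well, 93 of them tested. On day 1 after Cd 56 rose, or 60.2% against 12.8% of all probe sets tested, and 2 fell, namely Creb3l3 and Copg2, which are named here after their values were seen. Of the other translocation and glycosylation genes 15 of 18 rose, of the folding and ERAD genes 21 of 36, of the vesicle genes 16 of 31, and of the genes downstream of Eif2ak3 4 of 8. The largest rises were those of Asns (1.99 ± 0.40) and Nupr1 (1.73 ± 0.47), both of the latter group, the vesicle cargo protein Tmed3 (1.53 ± 0.19), the prolyl isomerase Fkbp11 (1.38 ± 0.19) and the oxidase Ero1b (0.77 ± 0.11), which recharges disulfide isomerases. The KDEL receptors return chaperones from the Golgi to the ER. Kdelr1, Kdelr2 and Kdelr3 rose by 0.28 ± 0.06, 0.63 ± 0.08 and 0.75 ± 0.21, and after Cr only Kdelr2 of the 3 was called. Srpra, the present symbol of the receptor gene Srpr, rose by 0.42 ± 0.07.

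After Cr 33 of the 93 rose and 9 fell, or 35.5% and 9.68%, not far from the 27.9% and 17.8% of all probe sets tested. The largest rises were those of Atf3 (1.38 ± 0.33), the oligosaccharyltransferase subunit Tusc3 (1.01 ± 0.14), the ERAD enzyme Ube2j1 (0.86 ± 0.11), Trib3 (0.80 ± 0.17) and the fusion protein Ykt6 (0.79 ± 0.11). Ero1b fell by 0.66 ± 0.21, where it had risen after Cd, a difference between metals of 1.43 ± 0.25 (adjusted p = 3.74e-05). Ddit3 (Chop), the death-associated factor of the UPR, rose by 0.69 ± 0.13 after Cd and read -0.20 ± 0.11 after Cr. Its difference between metals was 0.89 ± 0.17 (adjusted p = 0.000182). Atf4 was not called after Cd (0.31 ± 0.12) or Cr (0.22 ± 0.13). On days 3 and 7 none of the 93 was called.

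More than 1 probe set was tested for 13 of the 47 genes. Their calls were unlike in 5 genes after Cd (Arf1, Atf6, Canx, Srp54a and Srp72) and 7 after Cr (Canx, Pdia3, Sar1a, Sec22b, Srp54a, Srp72 and Ssr3). After Cr the probe sets of Canx were called in opposite directions, at 0.17 ± 0.06, 0.31 ± 0.12 and -0.29 ± 0.11, so its direction is uncertain. For Sar1a after Cr the dimmer probe set rose by 0.86 ± 0.09, where the brightest read 0.10 ± 0.06, and the dimmer probe set of Pdia3 fell by 0.35 ± 0.14.

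Hepatocyte markers were high in every liver, as the labelled tissue would have, with a mean log2 signal over 7 markers of 13.88 to 14.12 in the day 1 livers of both metals, and Alb was not called after Cd (-0.02 ± 0.04) or Cr (-0.01 ± 0.04). After Cd 1 of the 7 rose and 3 fell, and after Cr 2 rose and 2 fell. Plasma cells also have a large ER. Their marker Jchain was not called after either metal, and the mean of 5 plasma and B cell markers was 4.46 to 5.00 in Cd control and 4.59 to 4.85 in Cd exposed livers on day 1, below the filter. None of the 6 T and NK cell markers passed the filter.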

How the data were processed

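RNA of 59 rat livers was hybridized to Affymetrix Rat Genome 230 2.0 arrays. Partek Genomic Suite was used by the authors for normalization with RMA (robust multi-array average), and the log2 signals they deposited were used unchanged. RMA fits all arrays together and compresses differences of dim probe sets. Signals are not counts, so depth has no meaning here, and precision is set by the number of arrays.

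After removal of 57 control probe sets, 31042 remained, and the brighter 15521 by mean log2 signal (above 5.41) were tested. Each gene was read on its brightest probe set with 1 symbol. limma 3.58.1 in R 4.3.3 was fitted to the 6 groups of each metal, and metals were compared by the interaction in 1 fit of 59 arrays, with Benjamini-Hochberg adjustment over all tested probe sets and a threshold of 0.05. The fit was tested on simulated data. Labels number the livers within groups and do not say what a number shares between groups.

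The genes and lists were chosen with earlier results of these data known. Liver values are given for the 6 members per metal with the largest called day 1 differences and for members called in opposite directions, and besides these for Hspa5 and, on day 3, Sdf2l1, chosen after their values were seen. Up to 5 other pathway genes per comparison were named by size, with the KDEL receptors, Ddit3 and Atf4. Alternatives were pooled controls, no filter on dim probe sets, a signal minimum of 6, a replicate block, plain ANOVA contrasts, repeated quantile normalization, array weights, 1 fit for both metals, the median of a gene's probe sets, and leaving out each array. Promoters came from RefSeq (GRCr8). Protein sequences were not used here.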

Additional observations from a re-analysis of the deposited data

Results flagged for a closer look

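Single livers stood apart from the rest of their group in 6 of 132 gene and group sets checked, where chance gives about 1 in 20. These were Creld2 at 9.04 in Cd exposed liver 2 on day 7 (lowest) and at 10.53 in Cr exposed liver 4 on day 7 (highest), Sdf2l1 at 10.13 (lowest) and Dnajb9 at 9.63 (highest) in Cr control liver 4 on day 7, Sec11c at 10.29 in Cd exposed liver 5 on day 3 (highest), and Sel1l at 8.44 in Cr exposed liver 3 on day 3 (lowest). None of them lies in a day 1 group.

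The day 1 effect of Cd exceeded that of Cr, by the interaction test of limma, in Sdf2l1 (1.72), Hyou1 (1.32), Sel1l (1.27), Sec11c (1.18), Creld2 (1.11) and Dnajb11 (1.07) among the genes described liver by liver. The Cd effect of day 1 exceeded that of day 3 in Creld2 (1.88), Sdf2l1 (1.76), Sec11c (1.54), Dnajb9 (1.49), Dnajb11 (1.37), Hyou1 (1.23), Herpud1 (1.18), Sec23b (0.94), Sel1l (0.91) and Ssr2 (0.62). For Cr it did so in Creld2 (1.03), Sec23b (0.86) and Ssr2 (0.73). The Cd controls of Herpud1 and Dnajb9 moved between days as well. Those of Herpud1 read 9.53 to 10.11 on day 1 and 10.27 to 10.61 on day 3. Those of Dnajb9 read 8.93 to 9.47 and 9.43 to 10.12. Part of the 2 differences thus lay in the controls.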

How the results depend on the processing

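Across the alternatives, with 1 array left out or with another setting, the genes called higher numbered 37 to 43 on day 1 after Cd and 20 to 25 after Cr, and 20 to 28 for Cd against Cr. The lowest Cd count, 37, was that without exposed liver 4. Of the 43 Cd calls 34 held in every alternative, and of the 24 Cr calls 19 did. The genes called lower on day 1 after Cr, 1 as reported, were 3 with pooled controls and 2 with repeated quantile normalization, array weights, 1 fit for both metals or the median of a gene's probe sets. They ranged from 1 to 4 with 1 array left out, with 2 without exposed liver 2 and 4 without exposed liver 5 (Sel1l, Sdf2l1, Pdia4 and Calr). On day 3 after Cd, 1 gene was called lower in place of 0 with pooled controls, the replicate block or array weights (Sdf2l1) and with the median of probe sets (Edem1). For Cd against Cr, 1 gene, Xbp1, was called lower with array weights, and 0 to 1 with 1 array left out. Canx after Cr turned to -0.29 with the median of its probe sets, which were called in opposite directions. The cause of the other changes was not tested.

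With the replicate block within day, 43 genes were higher after Cd and 21 after Cr, 1 was lower after Cr, and 22 were higher for Cd against Cr. The labels do not say what a number shares. Over 29 pairs of livers with 1 number the deviations from the group means had a mean r of 0.126. Values ran from -0.112 to 0.281, with 17 over 0.1. The mean r of other pairs was -0.0311. Deviations cancel out within a group, so that value follows from the first and is no separate reference. Of the 29 exposed livers, each with 5 controls to match, 16 were best matched by their own number. These values are a hint that numbers may pair livers. Not every pair showed it, so the block was kept as an alternative. Under it Hsp90b1 and Canx were not called after Cr.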
